A study of Mus musculus with 12 samples.

Results

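Trp53, the mouse gene of the tumour suppressor p53, and 8 genes that act back on p53 were followed in LPS-activated splenic B cells after DNA damage, with and without an inhibitor of the ATM kinase. The 8 genes were Mdm2, Mdm4 and Rchy1, which encode RING proteins that bind p53, Ppm1d, which encodes the phosphatase Wip1, Ccng1, which encodes cyclin G1, and the ASPP family genes Trp53bp2, Ppp1r13b and Ppp1r13l. They were chosen by name and each matched 1 row of the deposited table, so that the 9 members stand among 29486 genes in all. All 9 members passed the filter on low values, which 15614 genes of the table passed.

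p53 is made continuously in unstressed cells and is kept scarce by Mdm2, a ubiquitin ligase that marks it for the proteasome. After a DNA double-strand break the kinase ATM and the kinases below it phosphorylate p53, Mdm2 and Mdm4, p53 escapes degradation, and it binds its target genes. Several of those targets, among them Mdm2, Ccng1 and Ppm1d, limit p53 in turn, so that their mRNA is commonly read as a sign of p53 activity. In B cells the pathway also meets the programmed DNA breaks of class-switch recombination. For activated B cells the study proposes that Mdm2 plays a minor part and that p53 is controlled mainly through translation of its mRNA.

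Cells were primary splenic B cells of adult C57BL/6Babr mice, isolated with a B cell kit and cultured with 10 μg/ml of LPS, a bacterial mitogen. Group LPS received LPS for 48 h. Group LE received LPS for 48 h and then 20 μM etoposide for 4 h. Group LEKU received LPS for 47 h, then 10 μM KU55933 from 1 h before etoposide, and then the same etoposide. Etoposide traps topoisomerase II on DNA and so produces double-strand breaks, and KU55933 inhibits ATM. Each group had 4 libraries of total mRNA, described in the study as biological replicates. No group received KU55933 without etoposide, the labels do not say whether LPS cells stayed in culture for the 4 h of the etoposide treatment, and the sequencing indexes differ between the groups, so that an index effect and the treatment cannot be told apart.

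The deposited value of a gene in a library is a fitted count: within a group the 4 columns differ by the same factor for every gene, to within 1.4e-14 on the log2 scale. They therefore hold the mean fitted for the group and the depth of each library, and no spread between replicates. No test between groups was possible from these columns, and every difference below is a description. For the same reason the fitted counts of a group rank by depth alone, in the same order for every gene, and whether the counts of 2 groups overlap says nothing of the agreement between replicates. The column totals, in units of 1000000 fitted counts, ran from 20.7 to 23.9 in LPS, from 22.5 to 30.6 in LE and from 20.4 to 25.1 in LEKU. A level is the fitted count divided by the size factor of the library, which is equal in the 4 libraries of a group, and a log2 difference is between levels after adding 1. The 95% intervals given with the differences treat the summed fitted counts of a group as reads, so that they cover counting error only and are narrower than an interval with replicate error would be. A difference is called higher or lower from 1.5-fold, which is 0.585 on the log2 scale. The 8 B cell markers all passed the filter, with the lowest at a level of 1139. Their sum was 543513 in LPS, 438780.2 in LE and 449014 in LEKU, lower in both groups with etoposide. The highest level of a single marker was 336526, so that 1 gene weighs heavily in the sum, and the direction of each marker is not given. The part of the lower B cell sum in the results below was not tested. All 6 T cell markers stayed under the filter, at no more than 4.21. The 8 macrophage markers together reached 415, 487 and 446 in LPS, LE and LEKU, and those of dendritic cells 2835, 1863 and 3378, with Siglech and Clec9a under the filter. The highest level of a single dendritic cell marker was 2966, so that the sum in LEKU is mostly that of 1 gene. The marker sums were 22.3, 28.3 and 24.6 for NK cells, 2.12, 15.2 and 4.45 for neutrophils and 213, 188.5 and 117 for red blood cells. Klrb1c and Klrk1 of the NK list and S100a8, S100a9 and Ly6g of the neutrophil list were under the filter. The neutrophil sum is thus mostly that of Mpo, at no more than 14.1, and 1 gene carries most of the NK sum, at no more than 27.1. Mertk, Marco, Hba-a1, Hba-a2 and Alas2 were also under the filter. In bulk RNA, fewer cells of a type and less RNA per cell cannot be told apart.

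The stretches before the transcription starts of Ccng1, Mdm2 and Trp53 are shown because the first pair are among the most responsive members and Trp53 was nearly level. They are RefSeq promoter sequences on GRCm38.p6, written 5′ to 3′ on the strand of the gene and ending 1 base before the start. Capitals mark p53 half-sites, the 10-base unit of which a full p53 site has 2, and in Ccng1 the adjoining half-site with 1 mismatch as well. The last 25 bases of the Ccng1 stretch lie in its first exon as GENCODE M21 annotates it.
Ccng1, chr11:40755287-40755536, minus strand: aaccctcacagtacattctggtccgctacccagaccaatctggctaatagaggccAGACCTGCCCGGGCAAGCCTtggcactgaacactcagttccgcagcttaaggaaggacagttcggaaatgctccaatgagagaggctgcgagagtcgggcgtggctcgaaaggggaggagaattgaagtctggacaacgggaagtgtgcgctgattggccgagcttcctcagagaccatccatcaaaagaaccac
Mdm2, chr10:117710759-117711008, minus strand: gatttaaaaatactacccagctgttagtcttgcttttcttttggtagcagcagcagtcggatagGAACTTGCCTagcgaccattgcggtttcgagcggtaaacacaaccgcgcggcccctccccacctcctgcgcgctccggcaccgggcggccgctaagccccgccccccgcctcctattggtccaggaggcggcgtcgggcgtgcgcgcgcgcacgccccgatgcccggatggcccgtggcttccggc
Trp53, chr11:69580256-69580358, plus strand, cut at the end of the neighbouring gene Wrap53: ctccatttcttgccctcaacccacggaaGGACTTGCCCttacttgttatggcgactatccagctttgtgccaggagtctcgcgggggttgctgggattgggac

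In Ccng1 the run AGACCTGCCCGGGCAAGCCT begins 195 bases before the start and holds 2 half-sites side by side, the first with the mismatch. Of 32851 promoter windows in the RefSeq table, each from 250 bases before to 50 after a start, 29 (0.0883%) held such a run. The pair with 1 mismatch was searched after the sequence had been seen. An exact half-site, which reads the same on both strands as a pattern, was present in 8.36% of all windows and in 5 of the 11 windows of the members. These were 1 window each of Ccng1, Mdm2, Trp53, Ppm1d and Rchy1, with GAACTTGCCT 186 bases before the start of Mdm2, GGACTTGCCC 75 bases before that of Trp53, GAGCTTGCTC 132 bases before that of Ppm1d and GAGCTTGTCT 90 bases before 1 of the 2 starts of Rchy1. The windows of Mdm4, Trp53bp2, Ppp1r13b and Ppp1r13l held none, although Ppp1r13l had the largest log2 difference of the members in LE against LPS, 4.75. Shorter cores are common: CATG, CAAG or CTTG, which overlap the half-site, occurred in 95.7% of all windows and in 9 of the 11. The p53-responsive promoter known for Mdm2 lies in its first intron, outside the window searched. A match is a run of letters, not a measured site, and p53 binding was not measured in these libraries.

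After etoposide, 6 of the 9 members were at least 1.5-fold higher than with LPS alone, against 23.4% of all genes past the filter, and 0 members were at least 1.5-fold lower, against 14.4%. With KU55933 before etoposide, 4 members were at least 1.5-fold lower than with etoposide alone, against 11.9% of all genes, and 0 were higher, against 6.93%. Compared with LPS alone, LEKU had 5 members higher, against 22.0% of all genes, and 0 lower, against 14.2%. The split of all genes depends on the scale: with quantile normalization 17.0% were higher and 21.3% lower in LE against LPS, 9.86% and 9.97% in LEKU against LE, and 15.7% and 17.1% in LEKU against LPS, and with column totals the last were 26.8% and 10.4%. It also depends on the filter: in LE against LPS 17.2% were higher and 8.31% lower with no filter, and 19% and 15.5% with a minimum of 50. The median log2 difference of the members was 0.88 in LE against LPS, −0.57 in LEKU against LE and 0.73 in LEKU against LPS, where the medians of all genes were 0.04, −0.05 and 0.07. The 3 comparisons share libraries and are therefore not independent of each other.

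**Figure D1:**
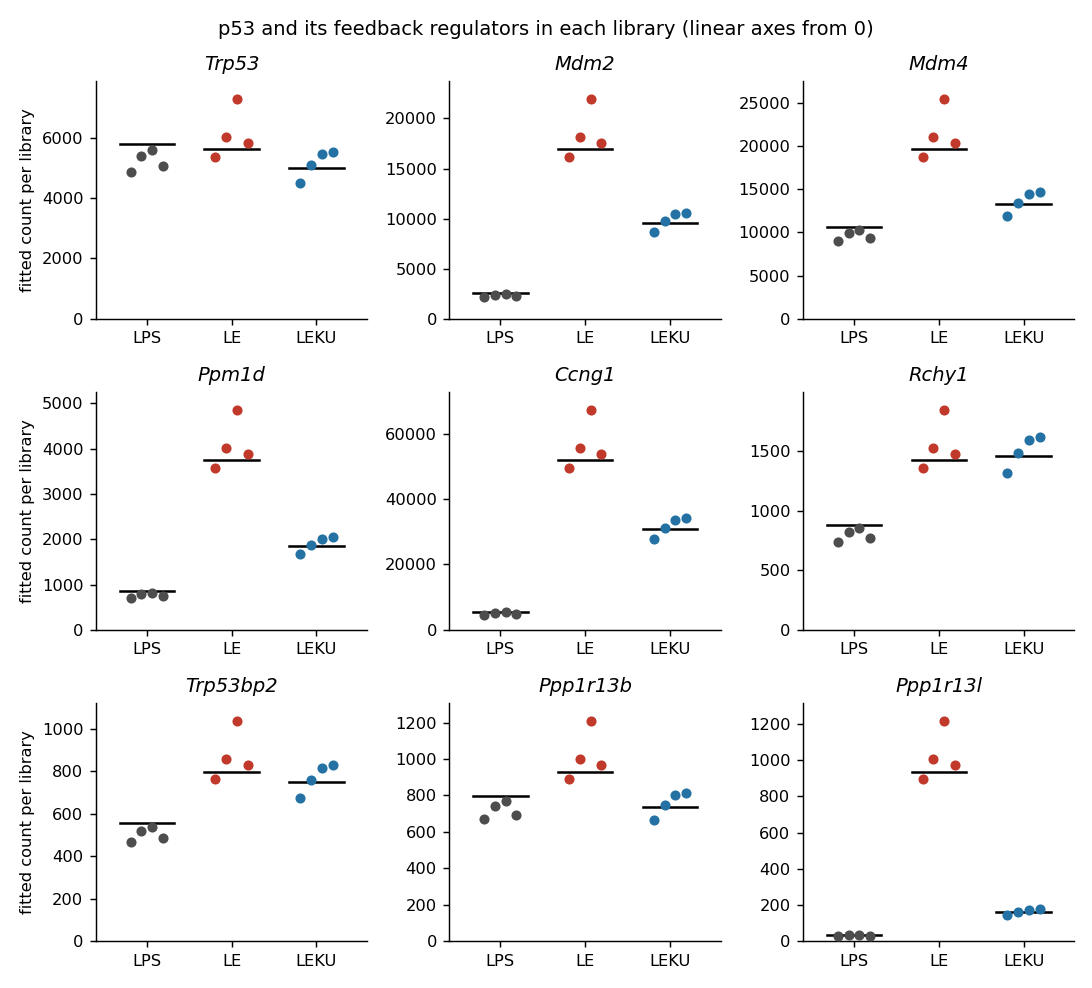
Fitted count of each member in each of the 12 libraries (points, 4 per group, linear axes from 0) with the level of the group after scaling (black lines). Ccng1, Mdm2, Ppm1d, Mdm4 and Ppp1r13l are highest in LE and lower in LEKU, Rchy1 is about as high in LEKU as in LE, and the groups of Trp53 lie close together, at levels of 5801, 5621 and 5011; the scatter of points within a group is the depth of the libraries and not replicate error.

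Trp53 mRNA itself (chr11:69580359-69591873, plus strand) was nearly level across the groups. Its fitted counts were 4861, 5393, 5610.2 and 5055 in the 4 LPS libraries, 5379.5, 6029.5, 7303 and 5845 in LE, and 4511, 5087, 5449 and 5539 in LEKU. The third LE library, the deepest of all, is highest, as for every gene of that group. After scaling the levels were 5801, 5621 and 5011 in LPS, LE and LEKU. The log2 difference of LE from LPS was −0.05 (counting interval −0.07 to −0.02), and it turned positive under 2 of the other scalings, over a range from −0.10 to 0.15. LEKU differed from LE by −0.17 (−0.19 to −0.14) and from LPS by −0.21 (−0.24 to −0.18), and the last changed sign under quantile normalization, where it was 0.06. None of the 3 reached 1.5-fold. The 3 genes whose differences lay nearest to those of Trp53, among 10873 genes with a mean level of at least 100, were Psmb4, Sf3a1 and Cinp, at distances of 0.0107, 0.0154 and 0.0193 in the plane of LE minus LPS and LEKU minus LE. As many as 311 genes lay within 0.1 of Trp53 in that plane, and 3 lay within 0.1 of Mdm2. Within 0.5 the counts were 5191 and 89. They follow the density of genes, since Trp53 lies near the middle of the plane and Mdm2 in its sparse part.

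Wrap53, which encodes a Cajal body and telomerase protein, lies head to head with Trp53 on the other strand, with 103 bases between the ends of the annotated genes. Its level was 629 in LPS, 1682 in LE and 1186 in LEKU, a log2 difference of 1.42 in LE against LPS and of −0.50 in LEKU against LE. Trp53 and Wrap53 share no exonic base in GENCODE M21. The Trp53 pseudogene on chromosome 17 was listed at a level of no more than 0.0878, near the lowest value of the table.

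Mdm2 (chr10:117688875-117710758, minus strand), the main ubiquitin ligase of p53, was among the most responsive members. Its fitted counts were 2148, 2383, 2478 and 2233 in LPS, 16193, 18149, 21981 and 17594 in LE, and 8628, 9729.7, 10424 and 10595 in LEKU. The levels after scaling were 2563, 16920.5 and 9585 in LPS, LE and LEKU, with LEKU between the others. Its level was 6.60-fold higher in LE than in LPS, a log2 difference of 2.72 (2.69 to 2.75), which placed it 459th from the top of the 15614 genes. In LEKU it was 1.77-fold lower than in LE, a log2 difference of −0.82 (−0.84 to −0.80), and 3.74-fold higher than in LPS, a difference of 1.90 (1.87 to 1.94). The genes whose differences lay nearest to those of Mdm2 were Gm9791, Rnf169 and Ei24, at distances of 0.0522, 0.0861 and 0.0896. Ei24, itself a known p53 target, differed by 2.81 in LE against LPS and by −0.83 in LEKU against LE.

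Mdm4 (chr1:132959484-133030561, minus strand) encodes a partner of Mdm2 that inhibits p53 at its target genes and has little ligase activity of its own. Its fitted counts were 8949.8, 9929, 10329 and 9307 in LPS, 18787, 21057, 25503 and 20413.5 in LE, and 11926, 13449, 14408 and 14645 in LEKU. The levels were 10681, 19632 and 13248 in the same order, with LEKU nearer to LPS than to LE. The level was 1.84-fold higher in LE than in LPS (log2 difference 0.88, 0.86 to 0.90). LEKU was lower than LE by a log2 difference of −0.57 (−0.58 to −0.55), just inside the limit of 1.5-fold, and it passed the limit at −0.59 with the trimmed mean as the scale. LEKU against LPS gave 0.31 (0.29 to 0.33), which passed the limit at 0.61 with quantile normalization and made 6 members higher in place of 5. A processed pseudogene on chromosome X, Mdm4-ps, was listed at levels of 1405, 2482 and 1675, with log2 differences of 0.82 and −0.57 in LE against LPS and LEKU against LE. How reads that match both copies were divided is uncertain, and the values of Mdm4 hold to that extent.

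Rchy1 (chr5:91948904-91963068, minus strand) encodes Pirh2, another ubiquitin ligase of p53. Its fitted counts ran from 742 to 856 in LPS, from 1364 to 1851 in LE and from 1318 to 1619 in LEKU, and its levels were 885, 1425 and 1464. The log2 difference from LPS was 0.69 (0.62 to 0.75) in LE and 0.73 (0.66 to 0.79) in LEKU. LEKU and LE differed by 0.04, and the counting interval, from −0.01 to 0.09, spans 0. Rchy1 was the 1 member at or above 1.5-fold in LE whose level was not lower in LEKU. Thap6, annotated as a transcribed pseudogene on the other strand, shares 680 exonic bases with Rchy1, which are 18.0% of the exonic length of Rchy1. Thap6 was listed at levels of 226, 1706 and 1932 in LPS, LE and LEKU, a difference of 2.91 in LE against LPS and 0.18 in LEKU against LE. The study names a stranded kit for these libraries, but the strand setting of the read counting is not given in the sources used here. The part of Thap6 reads in the difference of Rchy1 was not tested.

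Ppm1d (chr11:85311244-85347066, plus strand) encodes Wip1, a phosphatase that removes phosphates placed by ATM on p53 and on other damage-response proteins. Its fitted counts were 712, 790.2, 822 and 741 in LPS, 3579.6, 4012, 4859 and 3889 in LE, and 1663, 1875, 2009 and 2042 in LEKU. The levels were 850.02, 3740.4 and 1847, with LEKU between the others. The level was 4.40-fold higher in LE than in LPS (log2 difference 2.14, 2.08 to 2.19), 2.03-fold lower in LEKU than in LE (−1.02, −1.06 to −0.98), and 2.17-fold higher in LEKU than in LPS (1.12, 1.06 to 1.18).

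Ccng1 (chr11:40748552-40755311, minus strand) encodes cyclin G1, which recruits phosphatase 2A to Mdm2. Its fitted counts were 4649, 5158, 5365 and 4835 in LPS, 49610.5, 55605, 67345 and 53905 in LE, and 27746, 31288, 33519.8 and 34072 in LEKU. The levels were 5548, 51839.9 and 30822, with LEKU nearer to LE than to LPS. The level was 9.34-fold higher in LE than in LPS (log2 difference 3.22, 3.20 to 3.24), 1.68-fold lower in LEKU than in LE (−0.75, −0.76 to −0.74) and 5.56-fold higher in LEKU than in LPS (2.47, 2.45 to 2.50). Per kilobase of exon Ccng1 was 857th of 15535 genes in LPS, 60th in LE and 116th in LEKU, the highest of the members in every group.

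The ASPP genes encode proteins that bind p53 and steer it towards apoptosis genes (ASPP1 from Ppp1r13b and ASPP2 from Trp53bp2) or inhibit it (iASPP from Ppp1r13l). Ppp1r13l (chr7:19359749-19378533, plus strand) had fitted counts of 28.5, 31.6, 32.9 and 29.6 in LPS, 897, 1006, 1218 and 975 in LE, and 143, 162, 173 and 176 in LEKU. The levels were 34.0, 938 and 159, with LEKU much nearer to LPS than to LE on this scale. The level was 27.6-fold higher in LE than in LPS (log2 difference 4.75, 4.49 to 5.00), the 50th largest of the 15614 genes, and 5.89-fold lower in LEKU than in LE (−2.55, −2.67 to −2.43), the 26th from the lowest. LEKU stayed 4.69-fold above LPS (2.20, 1.92 to 2.47). The 4 LPS libraries hold 123 fitted counts of Ppp1r13l in all, and the authors' fit holds no value of 0 in any group (the lowest level in the table is 0.0757), as a fit that draws the differences of low genes towards 0 does, so that the size of its difference is less certain than that of the other members.

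Trp53bp2 (chr1:182409172-182462432, plus strand) and Ppp1r13b (chr12:111828457-111908110, minus strand) stayed within 1.5-fold in every comparison. Trp53bp2 had fitted counts from 465 to 537 in LPS, from 764 to 1038 in LE and from 675 to 829 in LEKU, with levels of 555, 799 and 749.5. Its log2 differences were 0.52 (0.44 to 0.60) in LE against LPS, −0.09 (−0.16 to −0.02) in LEKU against LE and 0.43 (0.35 to 0.51) in LEKU against LPS, and the first passed the limit, at 0.60, with column totals as the scale. Ppp1r13b had fitted counts from 669 to 772 in LPS, from 892 to 1210.3 in LE and from 663 to 814 in LEKU, with levels of 798, 932 and 736. Its differences were 0.22 (0.15 to 0.29), −0.34 (−0.41 to −0.27) and −0.12 (−0.19 to −0.04) in the same order, the last of which was 0.01 with column totals.

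Per kilobase of exon, the makeup of the ASPP mRNAs differed between the groups. Ppp1r13l made up 3.18% of the summed level of the 3 genes in LPS, 41.4% in LE and 12.2% in LEKU. The share of Ppp1r13b was 54.4%, 29.9% and 41.0% and that of Trp53bp2 was 42.4%, 28.7% and 46.8% in the same order. The ratio of Ppp1r13l to Ppp1r13b went from 0.0585 in LPS to 1.38 in LE and 0.297 in LEKU. Ratios between genes of the same libraries do not change with a scale of 1 factor per library. Quantile normalization is not of that kind, and under it the ratio of Ppp1r13l to Ppp1r13b was 0.0709, 1.38 and 0.289 in LPS, LE and LEKU.

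**Figure D2:**
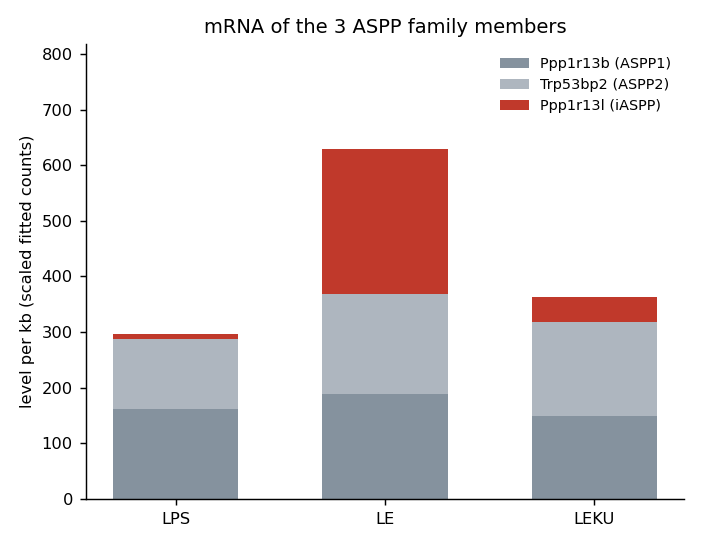
Level per kilobase of exon of the 3 ASPP family mRNAs in each group, stacked (1 bar per group, no error bars because the fitted counts hold no replicate spread). The summed level is 296 in LPS, 629 in LE and 363 in LEKU, and the part of Ppp1r13l goes from 9.43 in LPS to 260.2 in LE and 44.2 in LEKU.

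Within a group, the order of the members per kilobase of exon also differed. In LPS it was Ccng1, Trp53, Mdm4, Mdm2, Ppm1d, Rchy1, Ppp1r13b, Trp53bp2 and Ppp1r13l, from 1579.7 for Ccng1 and 1434 for Trp53 down to 9.43 for Ppp1r13l. In LE it was Ccng1, Mdm2, Trp53, Mdm4, Ppm1d, Rchy1, Ppp1r13l, Ppp1r13b and Trp53bp2, from 14761 down to 181. In LEKU it was Ccng1, Mdm2, Trp53, Mdm4, Ppm1d, Rchy1, Trp53bp2, Ppp1r13b and Ppp1r13l, from 8776 down to 44.2. Mdm2 was thus below Trp53 in LPS and above it in both groups with etoposide. These orders rest on the union of annotated exons as the length, which is 14.8 kb for Mdm4 and 4.045 kb for Trp53. Before division by length Mdm4 was above Trp53 in every group. The levels were 10681 against 5801 in LPS, 19632 against 5621 in LE and 13248 against 5011 in LEKU. How the isoforms in use bear on the orders was not tested. Of the neighbours in these orders, Ppp1r13b and Trp53bp2 in LE were the pair whose counting interval spans 0 (log2 ratio 0.06, −0.01 to 0.12), and whether the others differ beyond replicate spread could not be tested.

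Against Trp53 in the same libraries, Mdm2 stood at 0.352 per kilobase in LPS, at 2.40 in LE and at 1.52 in LEKU. Mdm4 stood at 0.503, 0.955 and 0.723, and Ppm1d at 0.187, 0.848 and 0.470. Ccng1 stood at 1.10, 10.6 and 7.08, and Rchy1 at 0.164, 0.272 and 0.313. Mdm2 and Mdm4, which act as a complex, also shifted against each other: the ratio of Mdm2 to Mdm4 was 0.699 in LPS, 2.51 in LE and 2.11 in LEKU. With quantile normalization it was 0.772, 2.43 and 2.20, and that of Mdm2 to Trp53 was 0.372, 2.34 and 1.55.

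**Figure D3:**
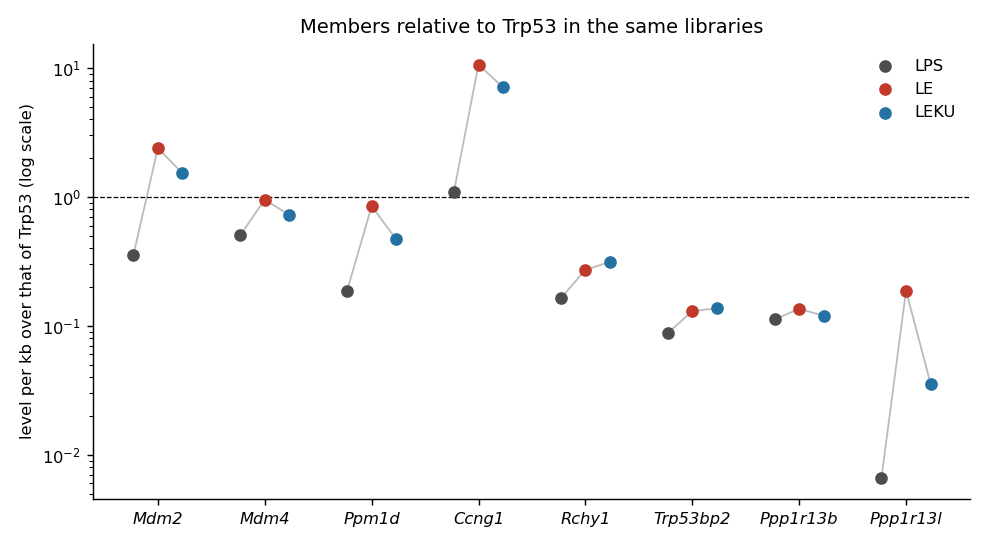
Level per kilobase of each member divided by that of Trp53 in the same group (log axis, 1 point per group, dashed line at equal levels). Mdm2 goes from 0.352 in LPS to 2.40 in LE and 1.52 in LEKU and crosses the line, while Mdm4 stays below it in all 3 groups. The position of Mdm4 depends on the exonic length used, 14.8 kb against 4.045 kb for Trp53, and undivided its level is above that of Trp53.

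The part of the etoposide difference that remained with KU55933 varied among the 6 members that were at least 1.5-fold higher in LE. Both differences are taken from the same LPS libraries, and the shares are a description. In levels above that of LPS, Mdm2 gained 14358 in LE and 7022 in LEKU, which is 48.9% of the gain in LE. For Ccng1 the share was 54.6%, for Ppm1d 34.5%, for Mdm4 28.7% and for Ppp1r13l 13.9%, and for Rchy1 it was 107%. On the log2 scale the shares were 69.9% for Mdm2, 76.7% for Ccng1, 52.4% for Ppm1d, 35.4% for Mdm4, 46.3% for Ppp1r13l and 106% for Rchy1. Over all 3651 genes at least 1.5-fold higher in LE the median log2 share was 69.2%, with quartiles at 47.5% and 91.2%, so that Mdm2 lay between the quartiles and Mdm4 and Ppp1r13l below the lower quartile. Both also lay below it with the other 3 scales of 1 factor per library, but above it with quantile normalization, where the quartile was 39.4% and the shares 52.9% for Mdm4 and 41.4% for Ppp1r13l, in reversed order. Whether KU55933 changes these mRNAs without etoposide was not tested in the study.

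**Figure D4:**
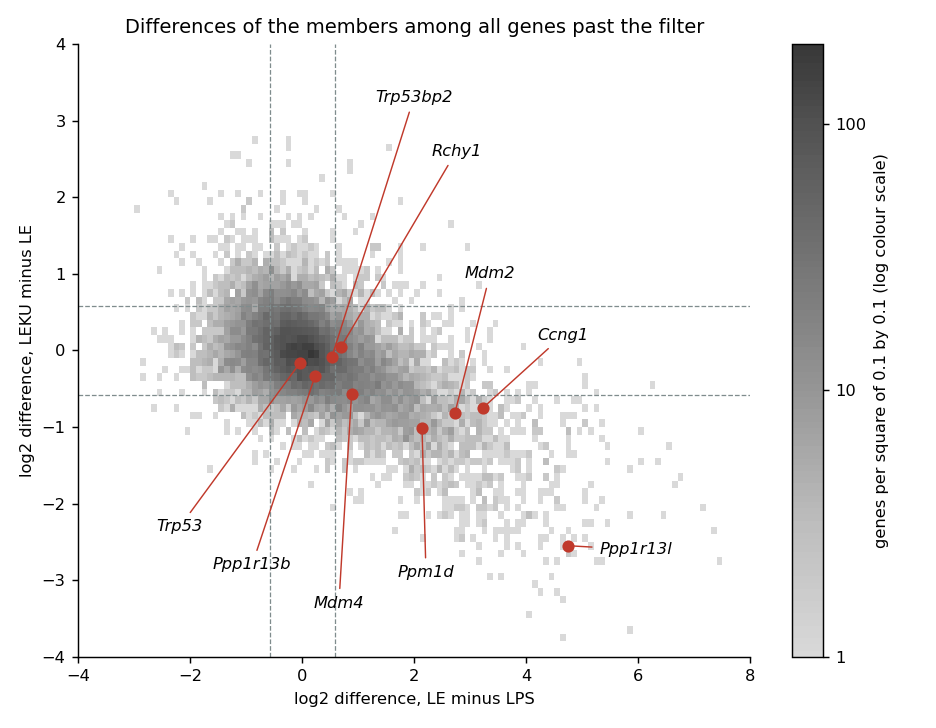
Log2 difference of LE minus LPS (x axis) against LEKU minus LE (y axis) for the genes past the filter (grey squares, darker for more genes, log colour scale) and the 9 members (red), with dashed lines at 1.5-fold; 3 of the 15614 genes lie outside the axes. Both axes use the LE libraries, with opposite sign. Ppp1r13l lies farthest to the lower right of the members while Rchy1 lies at 0.69 and 0.04.

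The other genes of the p53 pathway were read from 8 lists, each described by its counts past 1.5-fold, to be read against the shares of all genes past the filter. In LE against LPS these shares were 23.4% higher, 14.4% lower and 62.3% within the limit, and in LEKU against LE 6.93%, 11.9% and 81.1%. Of 27 p53 target genes outside the feedback loop, 19 were higher in LE than in LPS and 0 lower, with a median log2 difference of 2.17, from −0.17 for Sesn1, a stress-induced regulator of mTOR signalling, to 5.29 for the kinase gene Plk2. In LEKU against LE, 10 of the 27 were lower and 0 higher (median −0.45), from −2.05 for Perp, which encodes a membrane protein of apoptosis and cell adhesion, to 0.44 for the DNA repair gene Ddb2. Perp had levels of 4.52 in LPS, 203 in LE and 48.3 in LEKU. It was thus under 10 in LPS and passed the filter only through the groups with etoposide, as did some other targets of the list. The size of such differences is less certain. In LEKU against LPS, where 22.0% of all genes were higher and 14.2% lower, 21 were higher and 1, Sesn1, was lower (median 1.42), and the highest was Phlda3 at 4.83, which encodes an inhibitor of Akt.

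The kinases, ligases and chromatin enzymes that act on p53 were, like all genes, mostly within 1.5-fold. Of 12 p53 kinases 1 was higher in LE and 0 lower, Chek2 at 1.25, which encodes the checkpoint kinase activated by ATM, and the lowest was Atm itself at −0.55. In LEKU against LE Chek2 was the lowest, at −0.81, and Atm the highest, at 0.51, which is within the limit. Of 13 other ubiquitin ligases and conjugating enzymes of p53, 0 were higher in LE and 1 lower, Ube2d2a at −0.999, a conjugating enzyme used by Mdm2, and the median was −0.30. The ligase gene Cul9 was the 1 that was higher in LEKU than in LE, at 0.80. Of 8 deubiquitinases of p53 and Mdm2, 1 was higher in LE, Usp2 at 0.71, and 2 were lower, with Usp7, the best-known deubiquitinase of Mdm2 and p53, the lowest at −0.75, and 0 passed the limit in either direction in LEKU against LE. Of 11 acetyl- and methyltransferases and their erasers, 0 were higher in LE and 2 lower, from −0.64 for the methyltransferase gene Setd8 to 0.51 for the deacetylase gene Sirt1, and 0 passed the limit in LEKU against LE.

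For the remaining lists the shares of all genes are again 23.4% higher and 14.4% lower in LE against LPS, and 6.93% and 11.9% in LEKU against LE. Of 10 genes whose proteins inhibit Mdm2, among them ribosomal proteins, 1 was higher in LE, Rps27l at 1.52, and 0 were lower, with Cdkn2a, the gene of Arf and p16, the lowest at −0.43. In LEKU against LE 2 were lower, with Cdkn2a again the lowest at −0.84. The phosphatase group held 9 genes, of which 1 was higher in LE, Ppm1a at 1.04, a relative of Ppm1d, and 0 were lower, down to −0.57 for Ppp1cc, and 0 passed the limit in LEKU against LE. Of 9 genes of the p53 family and its cofactors 8 passed the filter, and Trp63 did not. Of these 8, 4 were higher in LE and 1 lower, from Trp53inp1, which encodes a p53 cofactor in stress, at 2.87 to Pml, which encodes the nuclear body protein, at −0.83. In LEKU against LE 2 were lower, with the p53 relative Trp73 the lowest at −1.19, and 0 were higher. In LEKU against LPS, with 22.0% of all genes higher and 14.2% lower, the counts higher and lower were 1 and 2 for the ligases, 0 and 3 for the deubiquitinases, 1 and 0 for the kinases, and 1 and 1 for the acetyl- and methyltransferases. They were 1 and 1 for the Mdm2 inhibitors, 0 and 1 for the phosphatases and 3 and 1 for the p53 family. The lowest of all these was Cdkn2a, at −1.27, and the highest Trp53inp1, at 2.25.

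**Figure D5:**
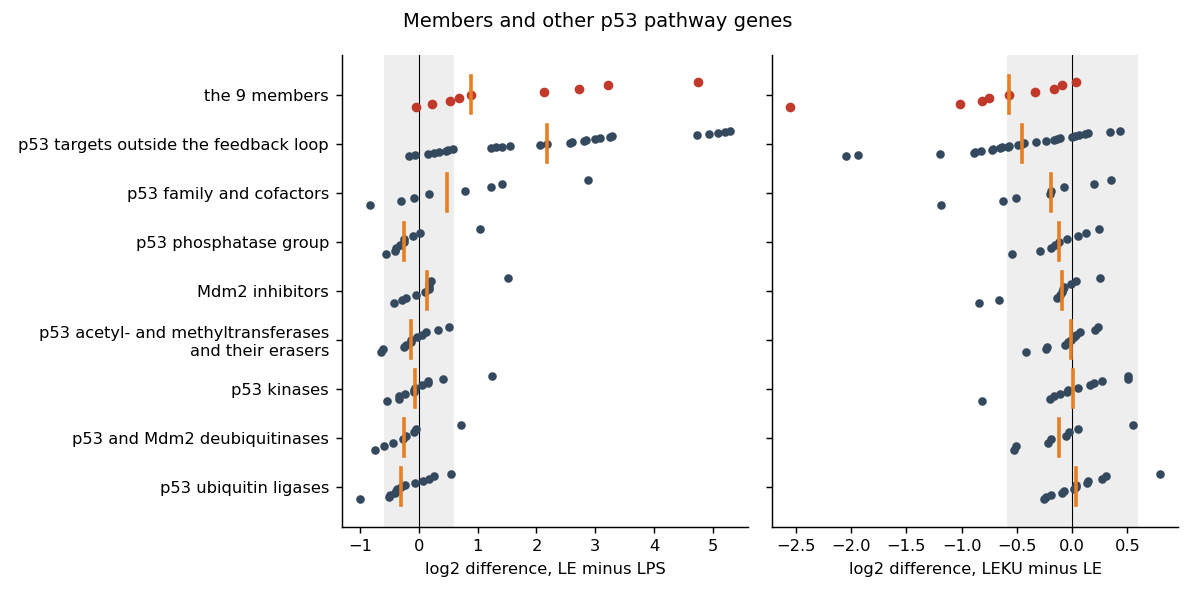
Log2 differences of the 9 members (red) and of the genes of 8 p53 pathway lists (dark points, 1 per gene past the filter), LE minus LPS on the left and LEKU minus LE on the right, with the median of each list (orange) and the range within 1.5-fold (grey). The list of p53 targets has its median at 2.17 in LE minus LPS and the members at 0.88, while the medians of the ligases, deubiquitinases, kinases and phosphatases lie between −0.30 and −0.07.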

How the data were processed

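Total mRNA of 12 libraries was analysed, 4 in each of the groups LPS, LE and LEKU. Per the submitters' processing notes the authors trimmed reads with Trim Galore and cutadapt 1.2.1, mapped them to GRCm38 with TopHat2 2.0.12, counted them with HTSeq on Ensembl 78 genes and fitted DESeq2 1.6.3. The deposited table holds a signal per gene and library, called normalized counts by the authors, which is the fitted mean of the group times a library factor. The deposited comparisons of the authors also hold fold changes, standard errors, Wald statistics and p-values, which were not used. Their mean signal over all libraries was used for 1 alternative scale.

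Columns were divided by size factors (median of ratios over 13712 genes at 10 or more in every library) and averaged per group, and log2 differences used a pseudocount of 1. Genes at 10 or more in at least 4 libraries were kept. A limma test had been planned, but fitted means give it no residual spread, so none was run. Levels per kilobase used the union of exons in GENCODE M21. Scales of column totals, trimmed means, quantiles and the authors' mean, no filter, a minimum of 50, pseudocounts of 0.5 and 5, a limit of 2-fold and leaving out each library were tried. Depth limits the precision through the counts, and intervals cover counting error only.

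The members and lists were chosen with earlier results of these data known. Named genes are the members, the largest and smallest difference of each list, genes overlapping or neighbouring a member and its pseudogenes, and the 3 genes most like Trp53 and Mdm2. On a simulated table of 29486 genes without noise, 200 genes were raised by 1 on the log2 scale in LE against LPS. The scaling gave a median of 1 back, which checks the calculation only. In the data 23.4% of genes past the filter were higher and 14.4% lower, a setting that the simulation did not cover. Promoter sequences are from RefSeq on GRCm38.p6. Scripts ran under Python 3.11.15 (numpy 2.4.6, pandas 2.3.3, matplotlib 3.10.9).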

Additional observations from a re-analysis of the deposited data

How the results depend on the processing

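Among 21 alternatives, the counts of members past 1.5-fold stayed within 1.5 times of those reported, except with a limit of 2-fold. That limit left 2 members lower in LEKU than in LE, Ppm1d and Ppp1r13l, in place of 4. It also left 4 members higher in LE than in LPS in place of 6, without Mdm4 and Rchy1. In LEKU against LPS it left 4 higher in place of 5, without Rchy1. Of 27 member differences, 3 changed sign under another scale: Trp53 in LE against LPS (−0.10 to 0.15), Trp53 in LEKU against LPS (−0.27 to 0.06) and Ppp1r13b in LEKU against LPS (−0.17 to 0.01), and all 3 lie within 1.5-fold. Quantile normalization moved the median of all genes in LE against LPS by −0.13, and column totals moved that of LEKU against LPS by 0.13. Leaving out 1 library changes only the scale of fitted means, moved no member difference by more than 0.01, and says nothing of replicate error. No paired analysis was possible because the columns of a group hold 1 fitted mean, so that libraries with the same number carry no deviation of their own.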
